A study of Mus musculus with 8 samples.

Results

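Zinc-treated hepatocytes from mice with a liver-directed deletion of Slc39a8, the gene of the zinc and metal importer ZIP8, were compared with untreated hepatocytes of the same genotype. The comparison used 3 of the 8 RNA-seq libraries of the study, namely 1 library of zinc-treated cells and 2 libraries of untreated cells, chosen by their labels and not by any measured value. Of 55450 genes in the count files, 15468 had enough reads to be tested, and the results below are those of the 12435 protein-coding genes among them, with pseudogenes left out.

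The tested cells were primary hepatocytes of C57BL/6 mice of 8 weeks with the genotype Alb-cre(+/+);Slc39a8(F/F), called LSKO for liver-specific knockout of Slc39a8, which were given zinc chloride. The dose was 2 µM, for 24 h by the sample labels and overnight by the series description. Untreated LSKO cells came from mice of the same strain, age and genotype and were grown in the same serum-free medium with dexamethasone, without added metal. Set beside them were LSKO cells given ferrous chloride, sodium selenite or manganese chloride at the same dose (1 library each) and untreated cells of Slc39a8(F/F) mice, which carry the floxed gene without Cre and are called WT (2 libraries). The Alb promoter drives Cre in hepatocytes, so other liver cells that remain in a culture would keep the gene. Nothing in the labels says that replicate libraries came from separate animals, and with 1 zinc library the p-values below measure that library against the spread between the untreated pairs, which may be technical.

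Zinc enters cells through ZIP transporters (the Slc39a family) and is moved out of the cytosol by ZnT transporters (the Slc30a family). A surplus of zinc is sensed by the transcription factor MTF1, which binds metal response elements and induces the metallothioneins, small cysteine-rich proteins that bind zinc, and the exporter ZnT1, encoded by Slc30a1. MTF1 is also known to hold down the importer gene Slc39a10. The liver uses metallothionein to buffer zinc and takes up more of it in inflammation.

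The promoters of Mt1, Mt2, Slc30a1 and Slc39a10 are shown because the background above names these genes as MTF1 targets. Each runs from 250 bases before to 50 bases after the gene start in RefSeq (build GRCm38.p6, gene strand), and capitals mark the metal response element core, searched as TGCACNC and TGCGCNC on both strands.

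Mt1: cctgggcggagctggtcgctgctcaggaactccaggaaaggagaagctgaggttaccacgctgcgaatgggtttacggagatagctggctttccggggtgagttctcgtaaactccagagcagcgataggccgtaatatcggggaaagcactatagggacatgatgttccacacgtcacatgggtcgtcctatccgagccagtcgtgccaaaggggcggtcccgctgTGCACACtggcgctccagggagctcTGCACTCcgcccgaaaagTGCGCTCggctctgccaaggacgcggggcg

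Mt2: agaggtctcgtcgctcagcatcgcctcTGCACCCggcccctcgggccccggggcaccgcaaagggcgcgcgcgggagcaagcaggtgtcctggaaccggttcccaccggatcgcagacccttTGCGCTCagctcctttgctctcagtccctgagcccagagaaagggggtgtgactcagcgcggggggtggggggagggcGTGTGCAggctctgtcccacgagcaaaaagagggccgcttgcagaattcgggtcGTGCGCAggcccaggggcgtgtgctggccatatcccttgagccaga

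Slc30a1: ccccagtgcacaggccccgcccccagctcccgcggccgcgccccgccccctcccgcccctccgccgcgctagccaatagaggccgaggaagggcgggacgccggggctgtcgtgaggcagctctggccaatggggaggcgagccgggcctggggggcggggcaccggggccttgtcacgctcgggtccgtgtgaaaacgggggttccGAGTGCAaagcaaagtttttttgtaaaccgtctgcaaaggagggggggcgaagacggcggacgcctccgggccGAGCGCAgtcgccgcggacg

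Slc39a10: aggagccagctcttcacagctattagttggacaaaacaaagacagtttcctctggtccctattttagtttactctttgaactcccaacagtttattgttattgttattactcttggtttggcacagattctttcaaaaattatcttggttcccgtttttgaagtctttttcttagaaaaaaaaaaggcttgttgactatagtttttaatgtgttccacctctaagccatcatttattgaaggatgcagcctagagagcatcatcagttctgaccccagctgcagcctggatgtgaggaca

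The Mt1 window lies at chr8:94178839-94179138 and holds 3 cores, and the Mt2 window lies at chr8:94172368-94172667 and holds 4. The window of Slc30a1 lies at chr1:191906531-191906830 and holds 2, both on the opposite strand. The window of Slc39a10, at chr1:46925727-46926026, holds 0, which says only that these letters are not in this window. It was placed at a RefSeq start that lies far upstream of the gene start in GENCODE M21, chr1:46892852 on the minus strand. The region around that GENCODE start was not searched. Such a core was found in 35.8% of the 9819 promoters of tested protein-coding genes that the RefSeq table held, and at least 2 cores in 11.4%.

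Metallothionein and zinc transporter genes moved in the zinc library against untreated LSKO cells. Levels are given as normalized CPM, that is CPM scaled to the reads in genes and to TMM factors. Mt1 (ENSMUSG00000031765) stood at 1695 CPM with zinc, against 741 and 788 CPM in the untreated LSKO libraries. The log2 fold change was 1.15 ± 0.088 (SE), with an adjusted p of 2.21e-05 by edgeR's quasi-likelihood test with Benjamini-Hochberg adjustment over all genes tested. A gene was called where this adjusted p was under 0.05 and the log2 fold change was beyond 0.5 in size. Mt2 (ENSMUSG00000031762) had 1449 CPM with zinc and 589.9 and 617 CPM without, a log2 fold change of 1.26 ± 0.091 (edgeR adjusted p = 1.33e-05). For both genes the zinc library was the highest of all 8, followed by the selenite library with 1317 CPM of Mt1 and 1054 CPM of Mt2. The iron library held 861 and 608 CPM of these genes, and the WT libraries held 561 and 565 CPM of Mt1 and 510.3 and 472 CPM of Mt2. Mt2 reached only 35.8 CPM in the manganese library, in which Mt1 had 912 CPM. Mt2 overlaps Gm45774 on the opposite strand, and the strand setting of the read counting is not given in the sources used here. Mtf1 itself was not called, with 34.2 CPM with zinc and 36.6 and 36.1 CPM in untreated LSKO cells (edgeR adjusted p = 0.716).

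Among the exporters, Slc30a1 was the 1 of 7 tested ZnT genes that was called higher, against 1.52% of all protein-coding genes tested. ZnT1, its product, sits in the plasma membrane and carries zinc out of the cell. The gene (ENSMUSG00000037434) had 117 CPM with zinc and 71.6 and 71.6 CPM in the untreated LSKO libraries, a log2 fold change of 0.71 ± 0.10 (edgeR adjusted p = 0.00212). All other libraries lay below zinc, the iron library coming nearest with 88.6 CPM. Slc30a1 overlaps 1700034H15Rik on the opposite strand. The other 6 genes of the family had log2 fold changes from -0.26 for Slc30a3, which was near the detection limit, to 0.29 for Slc30a6.

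Among the importers, 2 of 11 tested ZIP genes fell, against 0.804% of all protein-coding genes tested. Slc39a4 encodes ZIP4, the importer that takes up dietary zinc in the gut. It had 32.2 CPM with zinc and 69.7 and 71 CPM in untreated LSKO cells, a log2 fold change of -1.13 ± 0.11 (edgeR adjusted p = 0.000156). The other 5 libraries lay between 64.8 CPM with iron and 74.9 CPM in WT, so the zinc library stood alone. Slc39a10, which encodes ZIP10, had 3.06 CPM with zinc and 8.85 and 7.69 CPM in untreated LSKO cells (log2 fold change -1.43 ± 0.23, edgeR adjusted p = 0.00352). Again every other library was higher, from 7.69 to 10.4 CPM. Slc39a14, the importer ZIP14 of the inflamed liver, had 74.6 CPM with zinc and 72.9 and 84.9 CPM without (edgeR adjusted p = 0.738). Of 33 tested zinc-dependent liver enzymes, only 1 was called higher, against 1.52% of all protein-coding genes tested. This was Cpb2, a carboxypeptidase described further on. The calls of Mt1, Mt2, Slc30a1, Slc39a4 and Slc39a10 against untreated LSKO held under all 12 alternatives in which the fit was repeated.

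Reads of the targeted gene remained in the LSKO libraries, and unevenly so. Slc39a8 (chr3:135825279-135888572, GRCm38) had 45 reads with zinc and 185 and 51 reads in the untreated LSKO libraries, which is 1.83 CPM with zinc and 8.15 and 1.88 CPM without. LSKO replicate 1 therefore lay nearer to the WT libraries, at 12.7 and 15.5 CPM, than LSKO replicate 2 did. Untreated LSKO cells differed from WT cells by a log2 fold change of -1.52 (edgeR adjusted p = 0.0426). That call was lost without either WT library, with an adjusted p of 0.176 and 0.252. Between zinc-treated and untreated LSKO cells the gene was not called (log2 fold change -1.42 ± 0.68, edgeR adjusted p = 0.296). That value rested on LSKO replicate 1. Without it the log2 fold change was -0.04 (edgeR adjusted p = 0.983), and without LSKO replicate 2 it was -2.14 (edgeR adjusted p = 5.51e-09), which passed the call rule, as did the fit with no count filter.

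**Figure D1:**
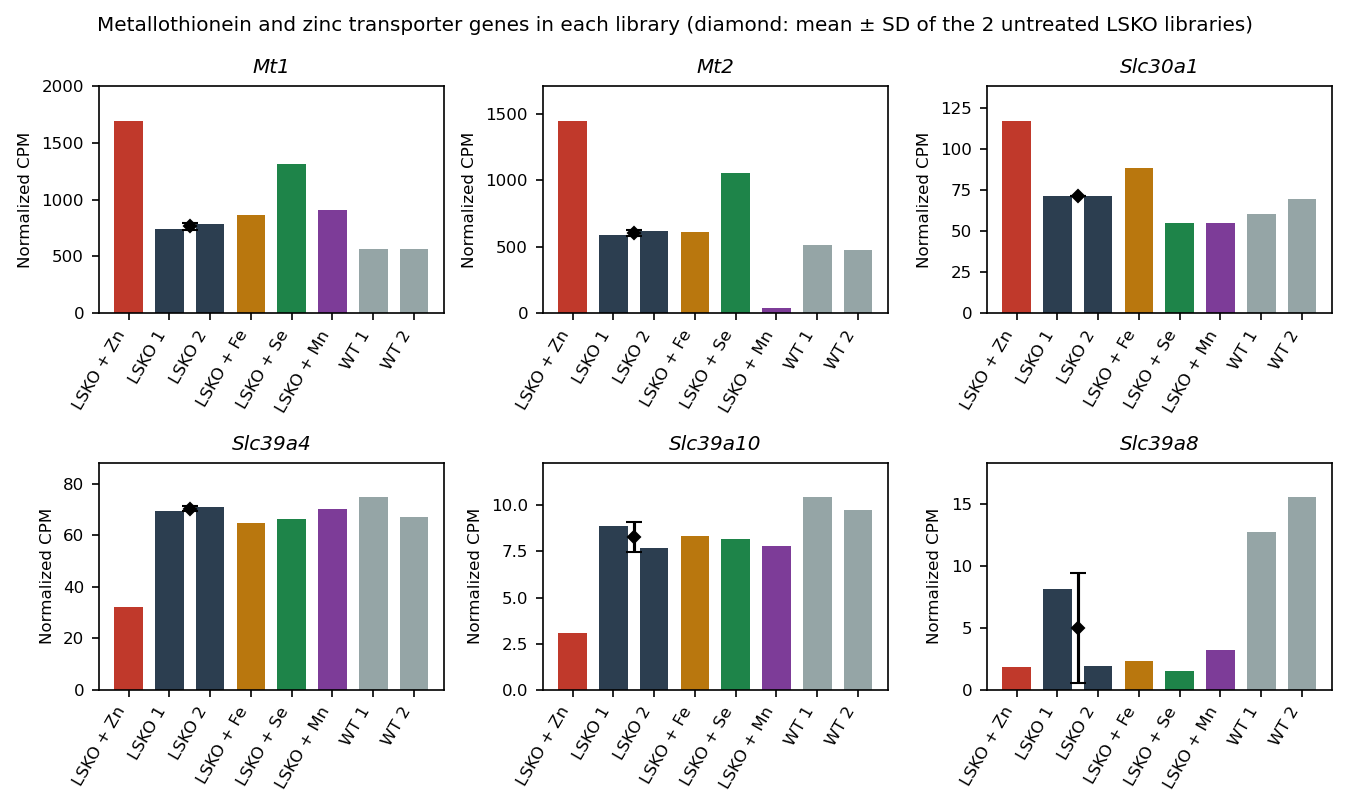
Normalized CPM (bars, axis from 0) of metallothionein and zinc transporter genes in each of the 8 libraries, with the mean ± SD of the 2 untreated LSKO libraries as a diamond. The zinc library is the highest of the 8 for Mt1, Mt2 and Slc30a1 and the lowest for Slc39a4 and Slc39a10, whereas Slc39a8 is uneven between the untreated LSKO libraries.

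Over all protein-coding genes, 189 of 12435 were called higher with zinc (1.52%) and 100 were called lower (0.804%), against a median log2 fold change of -0.012. Most changes were small: 106 of the 189 and 51 of the 100 were within 1 on the log2 scale. Counts of calls moved when a library was left out, which changes the spread and, for an LSKO library, also the level that zinc is set against. Without LSKO replicate 2 they were 353 higher and 193 lower, and without LSKO replicate 1 they were 216 and 164. Without WT replicate 1 or 2 there were 138 or 145 higher and 51 lower.

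The libraries themselves differed in a way that runs along this comparison. Reads in genes numbered 25339824 with zinc and 21886740 and 26837212 in untreated LSKO cells, within the range of 19943899 to 27731054 over the 8 libraries. Of the zinc library's reads, 639398 had been set aside for low alignment quality and 4.85% were unaligned, whereas the untreated LSKO libraries had 0 set aside and 9.44% and 10% unaligned. The WT, iron and selenite libraries were like the zinc library in both measures, and the manganese library, with 62 reads set aside and 8.79% unaligned, was nearer to untreated LSKO. Genes took 72.2% of the reads of the manganese library and 39.3% to 42.1% elsewhere. Of all protein-coding genes tested, 348 (2.8%) were higher in each of the WT, iron, selenite and zinc libraries than in each untreated LSKO and manganese library, and 231 (1.86%) were lower in each of them. Of the 189 genes called higher with zinc, 54 (28.6%) were split in that way, and of the 100 called lower, 12 (12%), shares that the call itself raises because it sets zinc apart from untreated LSKO. For these genes, zinc treatment and the difference in how reads were set aside cannot be told apart. Within this comparison the same holds for every other called gene, since a gene affected by the handling of reads need not split in that way.

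A comparison with libraries counted alike was therefore placed beside it, zinc against the mean of the iron and selenite libraries. There, 50 protein-coding genes were called higher (0.402%) and 23 were called lower (0.185%). None of these 3 libraries has a replicate, and the spread is that of the untreated pairs. Without WT replicate 1 or WT replicate 2, when the spread came from the LSKO pair alone, edgeR called 0 genes in either direction, though an unadjusted p under 0.05 was reached by 1375 and 1382 higher and by 607 and 608 lower genes. Without LSKO replicate 1 or 2 the calls were 286 and 291 higher and 101 and 100 lower. DESeq2 over all libraries called 42 higher and 22 lower. Both comparisons share the 1 zinc library, so a deviation particular to that library would enter both.

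**Figure D2:**
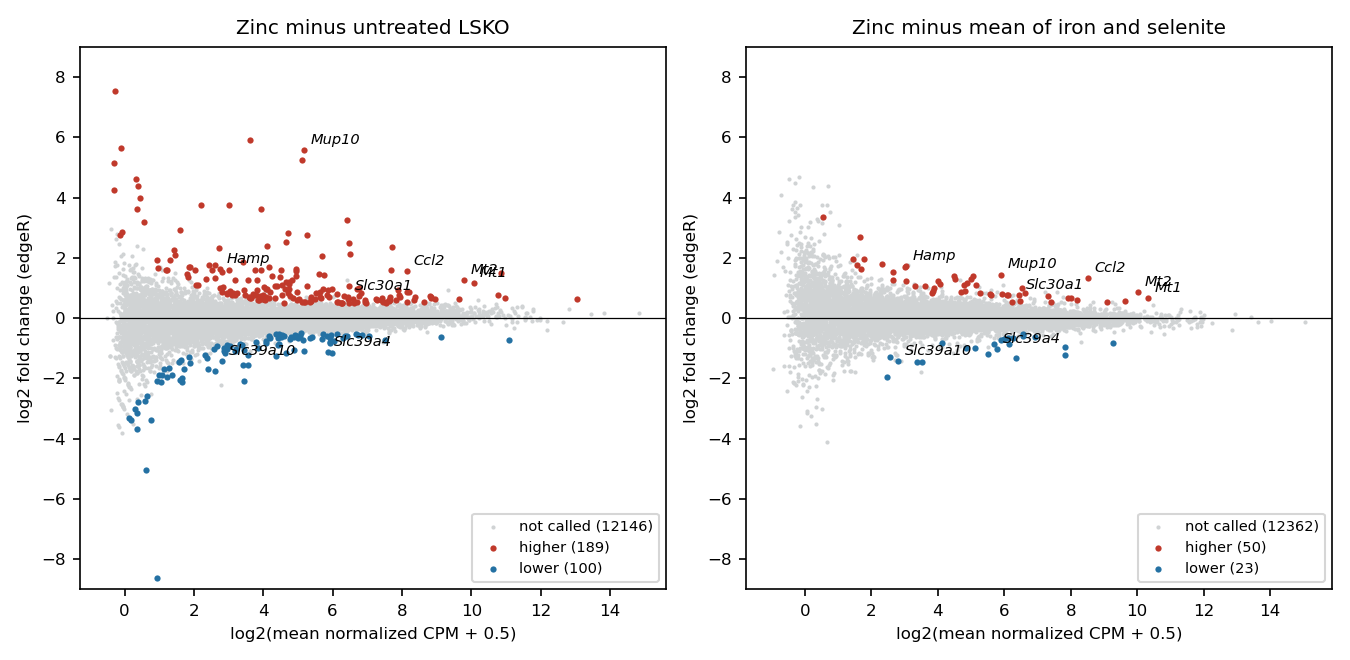
Log2 fold change by edgeR of each protein-coding gene (points) against log2(mean normalized CPM + 0.5), for zinc against untreated LSKO (left) and against the mean of iron and selenite (right), with called genes in colour. Against untreated LSKO 189 genes were called higher and 100 lower, and against iron and selenite 50 and 23, with Mt1, Mt2, Slc30a1, Slc39a4 and Slc39a10 called in both. The outermost points at the left of the panels are genes with few or no reads in 1 of the groups.

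Genes called in the same direction in both comparisons numbered 31 higher (0.249%) and 9 lower (0.0724%). Of the 31, 1 gene (3.23%), Mup10, was also split between the library sets above, and of the 9 none was. Zinc was the highest of all 8 libraries for 27 of the 31 genes and the lowest for 8 of the 9. This rank is largely fixed by the choice of the genes, which set zinc apart from 4 of the 7 other libraries. Exons of another gene overlapped 6 of the 31 and 1 of the 9 on the opposite strand, that is 19.4% and 11.1%, against 32.4% of all genes tested. How far zinc stood from the selenite library differed between genes. By a gap of 0.5 on the log2(CPM + 0.5) scale, a description chosen after the values were seen, the zinc library was beyond iron for 30 of the 31 higher genes but beyond selenite for 16, and beyond all 7 other libraries for 14. Of the 9 lower genes, zinc was beyond selenite for 9, beyond iron for 8 and beyond all 7 for 3, namely Slc39a4, Slc39a10 and Pdk4. The 5 zinc homeostasis genes were all among the 40. With at least 1 metal response element core in the promoter were 12 of the 27 higher genes that had a RefSeq promoter (44.4%), and with at least 2 cores 8 (29.6%). Both counts include Mt1, Mt2 and Slc30a1, the MTF1 targets shown above, with 3, 4 and 2 cores. Of the 8 lower genes with a promoter, 2 had a core (25.0%). Of the genes called against untreated LSKO, 46 of the 135 higher ones with a promoter had a core (34.1%) and 13.3% had at least 2, and 26 of the 69 lower ones had a core (37.7%). The share over all promoters was 35.8%, with at least 2 cores in 11.4%, and no test was made.

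Of the genes higher in both comparisons with an established symbol and a mean of at least 4 CPM over the zinc and untreated LSKO libraries, Hamp, which encodes the iron-regulating hormone hepcidin, led by the smaller of its 2 fold changes. It had 11.4 CPM with zinc and 3.22 and 4.16 CPM in untreated LSKO cells (log2 fold change 1.62 ± 0.23, edgeR adjusted p = 0.00178). The selenite library, at 10.9 CPM, was close to zinc, and the iron library, at 1.1 CPM, was the lowest of all. The difference from the mean of these metals was 1.72 on the log2 scale (edgeR adjusted p = 0.0151).

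Pqlc3, a gene of the PQ-loop family of membrane proteins, showed the more even pattern. It had 13.8 CPM with zinc, 4.67 and 4.38 CPM in untreated LSKO cells and between 3.84 and 6.28 CPM in the other 5 libraries (log2 fold change 1.61 ± 0.19, edgeR adjusted p = 0.000616). Rab29, a small GTPase of lysosomes and the trans-Golgi, had 51.8 CPM with zinc and 18.4 and 21.3 CPM without, the other libraries lying between 16 and 26.4 CPM. Its log2 fold change was 1.38 ± 0.13 against untreated LSKO and 1.29 against iron and selenite (edgeR adjusted p = 0.000107 and 0.00268). Zinc stood apart from all 7 other libraries for both genes. Rab7b, a related GTPase of the endosomal pathway, had 5.79 CPM with zinc and 1.54 and 2.02 CPM without (edgeR adjusted p = 0.0103).

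Slc22a4, the carrier OCTN1 of ergothioneine and organic cations, had 9.42 CPM with zinc and 3 and 3.16 CPM in untreated LSKO cells (log2 fold change 1.61 ± 0.23, edgeR adjusted p = 0.00192). Slc16a7, the monocarboxylate carrier MCT2, had 45.8 CPM with zinc and 15.6 and 22.7 CPM without (edgeR adjusted p = 0.00324). In WT cells Slc16a7 stood at only 5.55 and 7.11 CPM, so this gene lay above WT even in untreated LSKO cells. Fxyd1, which encodes the sodium pump regulator phospholemman, had the same order, with 35.5 CPM with zinc, 13.7 and 19.3 CPM in untreated LSKO cells and 5.21 and 4.67 CPM in WT cells (edgeR adjusted p = 0.00475 against untreated LSKO). Panx1, a channel that releases ATP, had 17.8 CPM with zinc and 10.6 and 10.3 CPM without (edgeR adjusted p = 0.0181).

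Raet1e encodes a stress ligand of the natural killer cell receptor NKG2D and had 36.8 CPM with zinc and 14.9 and 13.8 CPM in untreated LSKO cells (log2 fold change 1.36 ± 0.13, edgeR adjusted p = 0.000122). It shares exons with H60b and Raet1d on the same strand, so its reads may be split among them. Rnase4, a secreted ribonuclease, had 53.6 CPM with zinc and 17.2 and 19.4 CPM without (edgeR adjusted p = 0.000467) and shares exons with Ang. The other libraries lay between 8.38 and 30.5 CPM. Ubd, a ubiquitin-like modifier induced by cytokines, had 31.3 CPM with zinc and 10.4 and 13.5 CPM without (edgeR adjusted p = 0.000432), but 45.6 CPM with selenite, above zinc. Dpp4, the peptidase that inactivates incretins, had 65.7 CPM with zinc and 38 and 43.4 CPM without (edgeR adjusted p = 0.00482).

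Rcan2, an inhibitor of calcineurin, had 2.4 CPM with zinc and no more than 0.524 CPM in any other library, including 0.22 and 0.294 CPM in untreated LSKO cells (edgeR adjusted p = 0.00627). Fgfbp1, a secreted carrier of fibroblast growth factors, had 5.99 CPM with zinc and 0.749 and 0.809 CPM without (edgeR adjusted p = 0.00133). These genes were low, so their larger log2 fold changes of 3.18 and 2.93 rest on few reads. Rcan2 passed the minimum of 80 counts over the 8 libraries only through its reads with zinc. Its call, and its places among the 31 genes and the 14 beyond all 7 other libraries, rest on that same value. Csrp1, a zinc-binding LIM domain protein, had 137 CPM with zinc and 61.7 and 68.2 CPM without, and all other libraries lay between 60.1 and 73.2 CPM (log2 fold change 1.07 ± 0.098, edgeR adjusted p = 8.13e-05). Rxrg, a retinoid X receptor, had 9.99 CPM with zinc and 4.14 and 5.63 CPM without (edgeR adjusted p = 0.0318), and Tmco4 had 42.3 CPM with zinc and 19.2 and 18 CPM without (edgeR adjusted p = 0.000217). The thymosin gene Tmsb10, whose product binds actin monomers, had 334 CPM with zinc and 198 and 197 CPM without, with 293 CPM in the selenite library. Slfn9, Agmo, Aida, Tmem176a, Myl9, Gsta4, Tfrc, Mpeg1 and Ccl2 make up the rest of the 31, and those that belong to a gene list are described with it.

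The 9 genes lower in both comparisons included Slc39a4 and Slc39a10. Adcy1, an adenylyl cyclase activated by calmodulin, had 4.85 CPM with zinc and 12.2 and 16.7 CPM in untreated LSKO cells (log2 fold change -1.57 ± 0.25, edgeR adjusted p = 0.00376). WT cells, at 4.48 and 5.89 CPM, were at the level of zinc. Igf1, the growth factor through which growth hormone acts, had 40.4 CPM with zinc and 69.9 and 70.0 CPM without (log2 fold change -0.79 ± 0.10, edgeR adjusted p = 0.00089). Zinc was the lowest of the 8 libraries for Igf1, iron being next at 53.4 CPM. Igfbp1, which binds the same growth factor in plasma, had 407 CPM with zinc and 563 and 703 CPM without (edgeR adjusted p = 0.0153), close to WT at 413 and 433 CPM. Its call was lost without LSKO replicate 2 and without either WT library. Pdk4, the kinase that shuts off pyruvate dehydrogenase in fasting, had 16.5 CPM with zinc and 25.8 and 25.1 CPM without (edgeR adjusted p = 0.017), and the other 5 libraries lay between 24.8 and 43.3 CPM. DESeq2 did not call Pdk4. F11, which encodes coagulation factor XI, had 20.2 CPM with zinc and 40.0 and 46.4 CPM without (edgeR adjusted p = 0.000586), below all other libraries. Bmp8b had 44.2 CPM with zinc and 69.1 and 81.5 CPM without (edgeR adjusted p = 0.00315) and overlaps Ppie on the opposite strand, and Nat8f4 had 24.4 CPM with zinc and 36.6 and 37.2 CPM without (edgeR adjusted p = 0.0122).

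**Figure D3:**
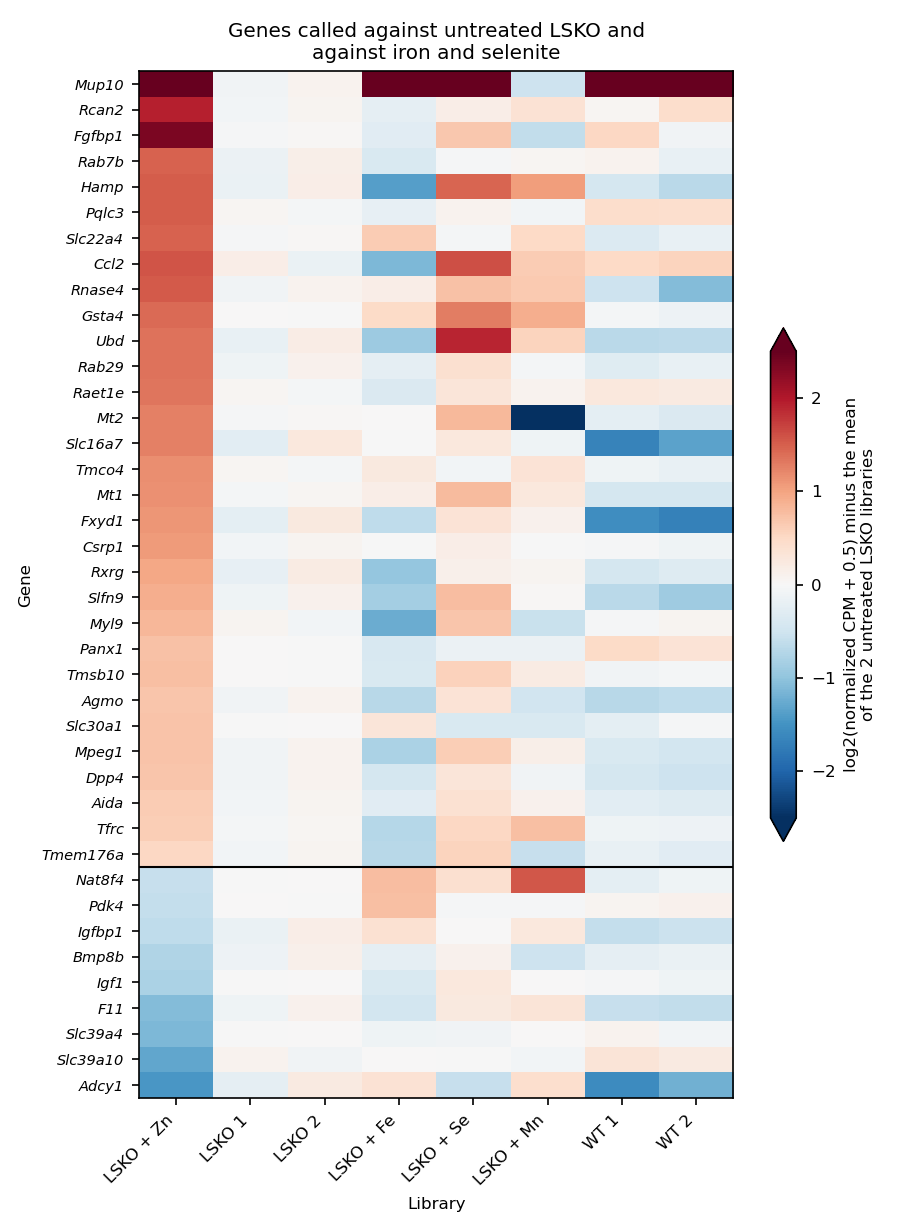
Heat map of the 40 genes called in the same direction against untreated LSKO and against iron and selenite (31 higher above the line, 9 lower below it) in the 8 libraries, as log2(normalized CPM + 0.5) minus the mean of the 2 untreated LSKO libraries. The zinc value is the highest of its row for 27 of the 31 higher genes, and the selenite value is above that of zinc for Ccl2, Ubd and Tmem176a.

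Iron genes were counted as a list because ZIP8 also carries iron. Of 20 tested genes of iron uptake, storage and export, 4 rose, against 1.52% of all protein-coding genes tested, with a median log2 fold change of 0.237 against -0.012 over all genes. Besides Hamp they were Tfrc, the transferrin receptor that takes up iron, and the plasma scavengers of free heme and hemoglobin, Hpx and Hp. Tfrc had 203 CPM with zinc and 127 and 137 CPM in untreated LSKO cells (log2 fold change 0.61 ± 0.090, edgeR adjusted p = 0.00218). With iron it stood at 80.1 CPM, and with selenite and manganese at 189.6 and 222 CPM. Hpx had 11111 CPM with zinc and 6659.8 and 7794 CPM without, and Hp had 2670.3 CPM with zinc and 1546 and 1820.2 CPM without (edgeR adjusted p = 0.00939 and 0.0046). The selenite library was above zinc for both. Against iron and selenite, where iron itself had been added to 1 of the libraries, the median of the list was 0.009. There Hamp and Tfrc were called higher and Trf was called lower, against 0.402% and 0.185% of all protein-coding genes tested. Trf, which encodes the plasma iron carrier transferrin, had 49.7 CPM with zinc, 71.2 and 86.5 CPM with iron and selenite and 67.6 and 66 CPM in untreated LSKO cells, the zinc library being the lowest of all 8 (log2 fold change -0.66 against iron and selenite, edgeR adjusted p = 0.0156). The ferritin gene Fth1 (3335 CPM with zinc, 2491 and 2608 CPM without) and the iron exporter Slc40a1 (139 CPM with zinc, 146 and 138 CPM without) were not called.

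Of the 10 largest rises against untreated LSKO among genes with an established symbol and a mean of at least 4 CPM, 7 were those of major urinary protein (Mup) genes, which encode small pheromone carriers made in the male liver. Of 20 tested Mup genes 12 were called higher, against 1.52% of all protein-coding genes tested. The median log2 fold change of the 20 was 1.55, and all 20 had a positive sign. Against iron and selenite 1 of the 20 was called higher, Mup10, against 0.402% of all protein-coding genes tested. The median there was 0.091. Mup10 had 103 CPM with zinc and 1.98 and 2.32 CPM in untreated LSKO cells (log2 fold change 5.57 ± 0.14, edgeR adjusted p = 2.63e-09), with 39.2, 36.7 and 1.36 CPM in the iron, selenite and manganese libraries and 25.6 and 28.1 CPM in WT. The gene was thus at 2.32 CPM or less in the untreated LSKO and manganese libraries, which had almost no reads set aside for low quality, and at 25.6 CPM or more in the others. Mup13 was split in the same way, with 96.9 CPM with zinc, 2.33 and 2.76 CPM in untreated LSKO cells, 2.29 CPM with manganese and 113 CPM with selenite. Mup22 was split too, with 210.5 CPM with zinc and 6.83 and 36.9 CPM without.

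Other Mup genes followed a different order, with zinc and selenite on top. Mup7, the most abundant one called, had 3261 CPM with zinc and 875 and 1413 CPM without, a log2 fold change of 1.51 (edgeR adjusted p = 0.00107), and 4748 CPM with selenite. Mup19 had 55.4 CPM with zinc, 7.58 and 11.4 CPM without and 71 CPM with selenite. Mup8 had 60.4 CPM with zinc and 6.48 and 10.5 CPM without, Mup9 had 10.7 CPM with zinc and 0.441 and 1.1 CPM without, and Mup12 had 88.7 CPM with zinc and 7.97 and 17.9 CPM without. Mup3 and Mup20, which were abundant throughout, were not called, with 2659 and 775 CPM with zinc against 2140.4 and 2584 CPM and 481 and 697 CPM in untreated LSKO cells. The Mup genes are near-identical copies, so the reads of 1 gene may be credited to another, and single members are uncertain. DESeq2 called 5 members higher, against 123 of all 12435 protein-coding genes tested. Without LSKO replicate 2 edgeR called more members, as it did over all protein-coding genes. Rps27rt, a retroposed copy of Rps27 with 38.5 CPM with zinc and 3.3 and 3.02 CPM without, and Nphs1, with 13.2 CPM with zinc and 2.64 and 2.65 CPM without, completed the 10 largest rises together with Gsta1, and both were split between the library sets as Mup10 was.

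Glutathione S-transferases, which conjugate electrophiles to glutathione, were the other large family. Of 22 tested genes 9 rose, against 1.52% of all protein-coding genes tested, with a median log2 fold change of 0.462. Against iron and selenite, 1 gene, Gsta4, was called higher, against 0.402% of all protein-coding genes tested. The median there was 0.131. Gsta1 had 449 CPM with zinc and 88.5 and 87.9 CPM in untreated LSKO cells (log2 fold change 2.35 ± 0.093, edgeR adjusted p = 9.19e-08). The selenite library held 433 CPM, the iron library 257 CPM and the WT libraries 178 and 159.6 CPM, so that Gsta1 was among the genes split between the library sets. Gsta2, its close copy, had 104 CPM with zinc and 20.5 and 29.1 CPM without (edgeR adjusted p = 3.44e-05), with 73.9 CPM in the selenite library. Reads of Gsta1 and Gsta2 may be exchanged. Gsta4, which clears lipid peroxidation products such as 4-hydroxynonenal, is less alike to them and had 92.4 CPM with zinc, 34.7 and 34.4 CPM without and 85.1 CPM with selenite (log2 fold change 1.42 ± 0.096, edgeR adjusted p = 7.99e-06). Gstm2 had 40.6 CPM with zinc and 11.8 and 15 CPM without (edgeR adjusted p = 0.000214), and Gstm1, the most abundant one called, had 604 CPM with zinc and 334 and 394 CPM without (edgeR adjusted p = 0.00212). The selenite library was near zinc for both, with 32.6 CPM of Gstm2 and 618 CPM of Gstm1. Gsto1, with 219 CPM with zinc and 142 and 145 CPM without (edgeR adjusted p = 0.00203), was higher with zinc than in each of the 7 other libraries.

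**Figure D4:**
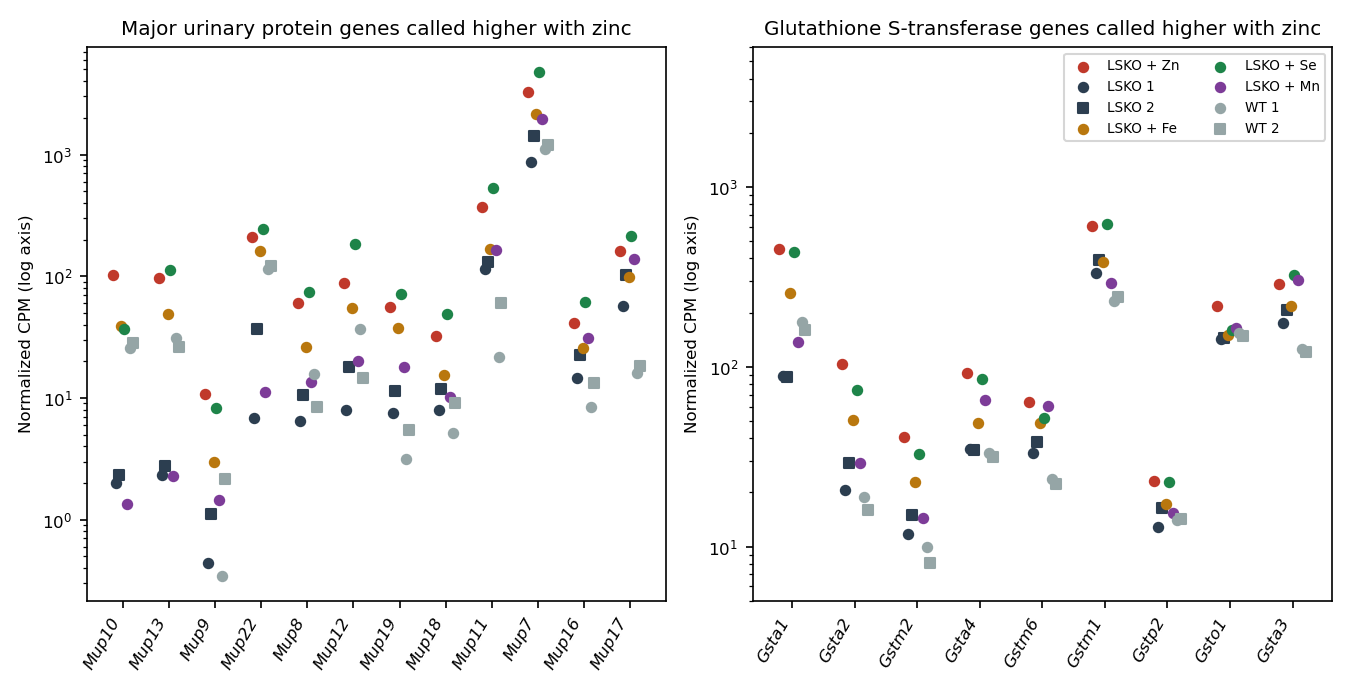
Normalized CPM (log axis) of the 12 Mup genes and 9 glutathione S-transferase genes called higher with zinc, with 1 point for each of the 8 libraries. Zinc and selenite are the top points for most genes, and Mup10, Mup13 and Mup22 stand lowest in the untreated LSKO and manganese libraries.

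Other targets of NRF2, the transcription factor that induces many glutathione transferases under oxidative stress, were counted as a list. Of 24 tested genes edgeR and DESeq2 called 0. An unadjusted p under 0.05 was reached by 8 higher genes of the 24 and by 0 lower ones. The share of higher ones was above the 8.34% of all protein-coding genes tested, and that of lower ones was below 8.22%. The median was 0.099, and 19 of the 24 had a positive sign. The aldehyde oxidase gene Aox1, with the smallest p, had 44.5 CPM with zinc and 31.4 and 31.5 CPM in untreated LSKO cells (log2 fold change 0.50, just under the minimum for a call). The glutathione synthesis genes Gclc and Gclm had 784 and 132 CPM with zinc, against 706 and 669 CPM and 125 and 125 CPM without. Of 22 selenoprotein genes only 1 rose, against 1.52% of all protein-coding genes tested. This was Selenow, with 151 CPM with zinc and 107 and 103 CPM without (edgeR adjusted p = 0.00805), below the 243 CPM of the selenite library.

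Chemokine genes rose in part. Of 21 tested chemokine and receptor genes 6 were called higher, against 1.52% of all protein-coding genes tested. The median log2 fold change of the list was 0.429. Ccl2, the chemokine that attracts monocytes, had 503 CPM with zinc and 191 and 149.6 CPM in untreated LSKO cells (log2 fold change 1.56 ± 0.12, edgeR adjusted p = 2.71e-05). Selenite had 519 CPM and iron 76.9 CPM, so the zinc and selenite libraries were close to each other and iron was the lowest library. Cxcl1, which attracts neutrophils, had 93.7 CPM with zinc and 51.3 and 44.8 CPM without, and Cxcl2 had 10.4 CPM with zinc and 2.86 and 3.31 CPM without (edgeR adjusted p = 0.000291 and 0.000569). Cxcl10, an interferon-induced chemokine for T cells, had 26.6 CPM with zinc and 8.63 and 9.12 CPM without (edgeR adjusted p = 0.000219). It overlaps Art3 on the opposite strand. Ccl3 and Ccl7 were the others called, at 4.69 and 5.71 CPM with zinc, against 0.881 and 1.07 CPM and 2.78 and 2.61 CPM without. Against iron and selenite 1 chemokine gene was called higher, Ccl2, against 0.402% of all protein-coding genes tested. Of 31 genes of the NF-kB pathway and its cytokine targets only 1 rose, against 1.52% of all protein-coding genes tested. This was Nfkbiz, with 21.3 CPM with zinc and 12 and 13.2 CPM without (edgeR adjusted p = 0.0206).

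Acute phase genes, which the liver induces in inflammation, rose for 6 of 26 tested members, against 1.52% of all protein-coding genes tested. The median of the list was 0.434. Saa3, a serum amyloid A gene, had 84.9 CPM with zinc and 24.7 and 36.3 CPM in untreated LSKO cells (log2 fold change 1.47 ± 0.18, edgeR adjusted p = 0.000635). Lcn2, which binds bacterial siderophores, had 2392 CPM with zinc and 1228 and 1598 CPM without (edgeR adjusted p = 0.00711), and the acid glycoprotein genes Orm1 and Orm2 were called with Hp and Hpx. Here zinc did not stand out from the other treated libraries. Saa3 had 67.5, 160.0 and 148 CPM and Lcn2 1546, 3288 and 2858 CPM with iron, selenite and manganese. Against iron and selenite the median of the list was 0.010. Without LSKO replicate 2 edgeR called more of them higher against untreated LSKO, and without either WT library fewer. Calls over all protein-coding genes moved in the same way.

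Against 0.804% of all protein-coding genes tested, growth hormone signalling and its male-biased targets showed 3 genes lower of 24 tested. They were Igf1, Igfbp1 and Cish, a feedback inhibitor of cytokine receptors with 8.93 CPM with zinc and 15.7 and 15.1 CPM in untreated LSKO cells (edgeR adjusted p = 0.0162). The median of the list was -0.133. Cish was not called by DESeq2.

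Few metabolic genes were called. Over all protein-coding genes tested 1.52% were called higher and 0.804% lower, so single calls in a list say little about that list. G6pc, the catalytic subunit of glucose-6-phosphatase, was low everywhere and had 0.815 CPM with zinc and 3.17 and 4.01 CPM in untreated LSKO cells (log2 fold change -2.14 ± 0.38, edgeR adjusted p = 0.00823), the 1 gene called of 23 for gluconeogenesis and glucose handling. G6pc was among the genes split between the library sets, being higher in the untreated LSKO and manganese libraries. Among 34 genes of PPAR alpha signalling and fat oxidation, 1 rose, the pantetheinase gene Vnn1, and 3 fell, namely Pdk4, Acot2 and Creb3l3. Creb3l3, a liver transcription factor of the fasting response, had 13.7 CPM with zinc and 23.5 and 37.5 CPM without (edgeR adjusted p = 0.0171). It was also 1 of the 2 hepatocyte transcription factors called lower among 24, with Cebpb, which had 55.9 CPM with zinc and 98.2 and 78.8 CPM without (edgeR adjusted p = 0.0171). Neither of the 2 was called without WT replicate 1 or 2. Cpb2, a zinc carboxypeptidase that slows fibrinolysis, had 343 CPM with zinc and 164 and 194 CPM without (log2 fold change 0.94, edgeR adjusted p = 0.000583), but 395 CPM with selenite. Of 34 xenobiotic P450 enzymes and receptors 1 fell, Cyp2d26, and of 23 UGT and sulfotransferase genes 2 rose, Ugt2b35 and Ugt2b38. Without LSKO replicate 2 more of those 23 were called, as over all protein-coding genes tested.

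Of 76 nuclear genes of oxidative phosphorylation 5 rose, against 1.52% of all protein-coding genes tested. The median of the list was 0.151, and 62 of 76 were positive. Cycs, which encodes cytochrome c, had 272 CPM with zinc and 157 and 179 CPM in untreated LSKO cells (log2 fold change 0.69 ± 0.099, edgeR adjusted p = 0.00182), and Ndufb4, Ndufs6, Uqcrb and Atp5l were the others. Once length and GC content were corrected for, 1 of the 76 was called. That fit called 146 genes higher and 83 lower of all 12435 protein-coding genes tested. Ribosomal protein genes were alike in sign, with 41 of 46 large subunit and 29 of 32 small subunit genes positive and medians of 0.193 and 0.171, but only 1 of these genes, Rpl29, passed the call rule. Of the 13 protein-coding genes of the mitochondrial genome 3 were called lower, against 0.804% of all protein-coding genes tested. The 3 were mt-Atp6, mt-Co2 and mt-Co3, at 10.2, 17 and 13.5 CPM with zinc. In untreated LSKO cells mt-Atp6 had 26.5 and 23.1 CPM, mt-Co2 40.6 and 30.2 CPM and mt-Co3 27.3 and 22.7 CPM. With iron the 3 had 14.3, 10.9 and 6.58 CPM, with selenite 24.7, 33.15 and 23.6 CPM and with manganese 2.88, 5.38 and 2.54 CPM. WT cells had 14.8 and 12.9 CPM of mt-Co3. None of the 3 was called against iron and selenite. The abundant mt-Co1 had 15563 CPM with zinc and 14475 and 13105 CPM without and was not called.

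Signalling and structural genes gave few calls, beside shares of 1.52% higher and 0.804% lower over all protein-coding genes tested. Of 26 immediate early genes Fos and Egr1 rose and Klf10 fell. Fos had 14.1 CPM with zinc and 4.98 and 6.7 CPM in untreated LSKO cells, and Egr1 had 159 CPM with zinc and 89.3 and 89.1 CPM without (edgeR adjusted p = 0.00315 and 0.00022). The iron and manganese libraries were above zinc for both. Of 30 Notch pathway genes the ligand gene Dll4 and the target Hes1 fell, at 1.1 and 12.8 CPM with zinc, against 4.05 and 3.13 CPM and 20.8 and 19.8 CPM without (edgeR adjusted p = 0.0226 and 0.0276). DESeq2 called neither. Of 34 TGF-beta and BMP genes 2 fell, the inhibitory Smad7 and the activin-binding Fst. Without LSKO replicate 2 more of them were called lower, as over all protein-coding genes tested. Of 45 cytoskeleton and adhesion genes 6 rose and 1 fell, and among the 6 were 3 tubulin genes, Tuba1a, Tuba1c and Tubb2b. Tubb2b had 31.4 CPM with zinc and 16 and 14.1 CPM without (edgeR adjusted p = 0.00193) and was split between the library sets. Of 27 p53 targets, Plk2 and Fas rose. In 14 of 43 pathway lists edgeR called no member: among their 346 tested places, 39 higher (11.3%) and 21 lower (6.07%) ones had an unadjusted p under 0.05, against 8.34% and 8.22% of all protein-coding genes tested, and DESeq2 called 0. Genes of the unfolded protein response, heat shock, cholesterol synthesis, fatty acid synthesis, bile acids and the cell cycle were among them.

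Markers of liver cell types were read for the identity of the cultures. The 12 hepatocyte markers were all expressed, albumin (Alb) with 31655 CPM with zinc and 25150.0 and 31506 CPM in untreated LSKO cells, and edgeR and DESeq2 called 0 of them. An unadjusted p under 0.05 was reached by 2 higher and 2 lower markers of the 12. Both shares were above the 8.34% and 8.22% of all protein-coding genes tested, on few markers. Of 17 tested markers of liver sinusoidal endothelial cells 4 fell with zinc, against 0.804% of all protein-coding genes tested. All 17 had a negative sign, with a median of -0.596. Against iron and selenite 0 of the 17 were called, and the median had the other sign, at 0.332. Clec4g, a lectin of these cells, had 2.16 CPM with zinc and 8.63 and 5.96 CPM without (log2 fold change -1.75 ± 0.31, edgeR adjusted p = 0.00714), and Gpr182 had 3.79 CPM with zinc and 8.9 and 7.98 CPM without (edgeR adjusted p = 0.0238). Dnase1l3 and Clec14a were the others called. In bulk samples fewer cells of a type and less RNA per cell cannot be told apart. The summed level of these markers was 192.0 CPM with zinc and 308.3 and 238.2 CPM in untreated LSKO cells. It was 143.6 CPM with iron, 195.5 CPM with selenite, 270 CPM with manganese and 380.7 and 409.9 CPM in WT. DESeq2 called 1 of the 17 lower against untreated LSKO, against 39 of all 12435 protein-coding genes tested. Without LSKO replicate 2 edgeR called more of them lower, as it did over all protein-coding genes.

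The markers of stellate cells and fibroblasts summed to 63.8 CPM with zinc and 79.3 and 78.8 CPM in untreated LSKO cells. With iron, selenite and manganese the sum was 37.5, 70.9 and 80.8 CPM. Against iron and selenite 0 of the 15 tested markers were called, and the median log2 fold change was 0.304. The median against untreated LSKO was -0.555. There 2 of 15 markers fell, against 0.804% of all protein-coding genes tested. They were the collagen gene Col3a1, with 1.96 CPM with zinc and 6.96 and 5.63 CPM without (edgeR adjusted p = 0.00771), and the receptor gene Pdgfrb, which had 3 reads with zinc and 27 and 29 reads without. Aqp1, a water channel of endothelial and bile duct cells, had 5.91 CPM with zinc and 16.7 and 10.9 CPM without (edgeR adjusted p = 0.019), and Krt19, a bile duct keratin, had 6.24 CPM with zinc and 11.3 and 11.2 CPM without (edgeR adjusted p = 0.0269). The iron library was below zinc for Col3a1, Aqp1 and Krt19, at 1.35, 1.99 and 4.24 CPM, but not for Pdgfrb, with 9 reads. Ivl, Xirp2, Hhipl1 and Arhgef10 were the remaining members of the 10 largest falls, which also held Adcy1, Slc39a10, Clec4g, Col3a1, Aqp1 and mt-Atp6. DESeq2 did not call Xirp2, Hhipl1 or Arhgef10. Ivl, which encodes a protein of the keratinocyte envelope, had 3.3 CPM with zinc and 10.8 and 17.2 CPM without (edgeR adjusted p = 0.00226), and the iron library was lower still at 0.897 CPM.

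Macrophage markers did not move together. Of 17 tested, 3 rose, against 1.52% of all protein-coding genes tested, and the median was -0.167. Marco, a scavenger receptor, had 23.8 CPM with zinc and 8.02 and 7.61 CPM in untreated LSKO cells, and Adgre1, which encodes F4/80, had 9.33 CPM with zinc and 3.57 and 3.79 CPM without (edgeR adjusted p = 0.00363 and 0.00299). With iron, selenite and manganese Marco had 11.5, 26.0 and 26.9 CPM and Adgre1 had 3.44, 12.5 and 10.6 CPM, so selenite and manganese were above zinc for both. Mpeg1, a pore-forming protein of phagocytes, had 79 CPM with zinc and 45.2 and 51.6 CPM without (edgeR adjusted p = 0.00315) and was also called against iron and selenite. The Kupffer cell markers Clec4f and Vsig4 had 8.97 and 4.04 CPM with zinc, against 12.1 and 20.6 CPM and 7.14 and 7.21 CPM without. The summed level was 438.8 CPM with zinc and 371.6 and 419.2 CPM in untreated LSKO cells. It was 385.7, 492.1 and 632.6 CPM with iron, selenite and manganese. Markers of blood cells were scarce, with 1 of 15 lymphocyte, 3 of 12 neutrophil and 1 of 7 erythroid markers reaching the minimum for a test. Of the neutrophil markers S100a8 was called higher on few reads, 31 with zinc and 0 and 1 in untreated LSKO cells. The iron, selenite and manganese libraries had 0, 46 and 20 reads of it. S100a8 reached the minimum of 80 counts over the 8 libraries only with the zinc reads included, so its call rests on the reads that let it be tested. The part of these cells in the changes of chemokine and acute phase genes was not tested.

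**Figure D5:**
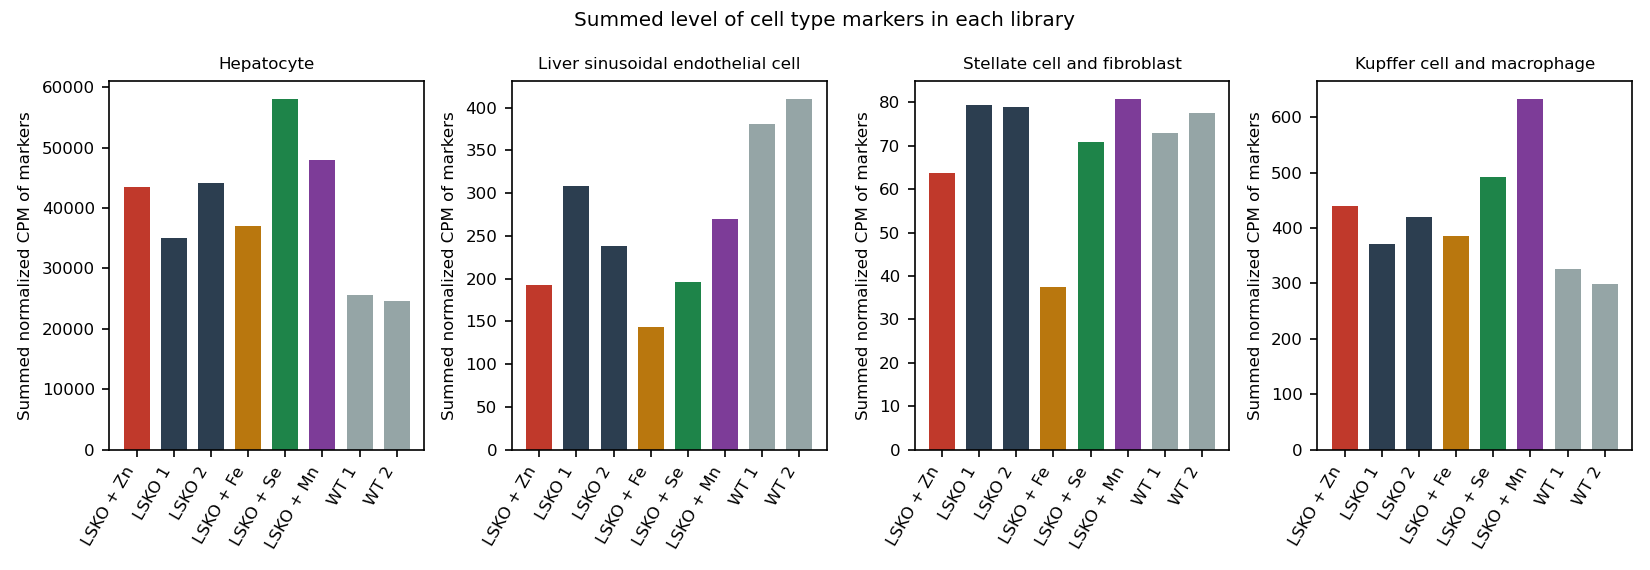
Summed normalized CPM (bars, axes from 0) of the markers of 4 cell types in each of the 8 libraries. The endothelial sum was 192.0 CPM with zinc and 308.3 and 238.2 CPM in untreated LSKO cells, whereas the macrophage sum was 438.8 CPM with zinc and 371.6 and 419.2 CPM in untreated LSKO cells.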

How the data were processed

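RNA-seq libraries of primary mouse hepatocytes were used, 8 in 6 groups. Raw counts per gene were deposited. The authors obtained them by trimming with Trimmomatic, aligning with HISAT2 to GRCm38 and counting with HTSeq. The labels and the methods differ on the read layout. Annotation release, strand setting and quality minimum were not given in the sources used here. The summary counts of each file (reads in no gene, ambiguous, low quality, unaligned, not unique) stayed out of library sizes and tests and made up the rest beside the 39.3% to 72.2% of reads in genes. Symbols, classes and coordinates came from GENCODE M21, and promoters from RefSeq.

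Genes that summed to 80 counts or more over the 8 libraries were fitted in R 4.3.3 with edgeR 4.0.16 (TMM factors, 6 groups, quasi-likelihood F-test). The fit left 2 residual degrees of freedom, from the WT and LSKO pairs, and moderation added 8.53. Standard errors are the log2 fold change over the square root of F. Replicates differed beyond sampling noise (chi-square over degrees of freedom 5.98 in the WT pair and 13.3 in the LSKO pair).

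Named genes are the zinc genes called with Slc39a8, the 10 largest rises and falls with zinc at a mean of at least 4 CPM, the 10 largest of those called in both comparisons, and up to 3 called members (or the 1 with the smallest p) of each of 51 gene lists. Further genes were named after their values were seen. The members and lists were chosen with earlier results of these data known. Near-identical copies and overlapping genes are uncertain. On the opposite strand of another gene lie Nphs1, Clec4g, Xirp2, Hhipl1, Arhgef10, Slc16a7, Cish, Cebpb, Dll4, Fst and Uqcrb, and Col3a1, mt-Atp6 and mt-Co3 share exons on the same strand.

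Alternatives were DESeq2 1.42.0, other size factors and count filters, other sets of libraries, each replicate left out, other thresholds and other metals as the reference. A length and GC correction by robust regression on splines (MASS 7.3.60.0.1) was a further alternative.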

Additional observations from a re-analysis of the deposited data

How the results depend on the processing

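Among the 87 named genes called against untreated LSKO, 49 kept their call under all 12 alternatives and none changed sign. DESeq2 did not call 25 of them, leaving out either WT library 21, fitting zinc and untreated LSKO alone 29, the length and GC correction 10, and leaving out LSKO replicate 1 or 2 lost 5 and 4. Of the genes without a call, Alas2 (0.20) ranged from -0.0878 to 0.6017 when LSKO replicate 1 or 2 was left out. Against untreated LSKO (189 higher, 100 lower), calls numbered 312 and 241 with no count filter, 123 and 39 with DESeq2, 125 and 39 from zinc and untreated LSKO alone, 83 and 49 at a log2 fold change over 1, and 448 and 240 with non-coding genes and pseudogenes counted. Leaving out 1 replicate gave 138 to 353 higher and 51 to 193 lower. Against iron and selenite (50 higher, 23 lower), they numbered 300 and 114 with no count filter, 25 and 9 at a log2 fold change over 1, 678 and 460 against iron alone, 283 and 131 against selenite alone, and 590 and 134 against iron, selenite and manganese. Leaving out 1 replicate gave 0 to 291 higher and 0 to 101 lower; the spread then comes from 1 pair alone. All 19 of the named genes called in both comparisons that were ranked by size kept their sign without WT replicate 1 or 2, with a lowest adjusted p of 0.0551 and 0.0525. For Slc39a8 in untreated LSKO against WT (-1.52), the call was lost with DESeq2 (-1.50, adjusted p = 0.446), after the length and GC correction (-1.51, adjusted p = 0.0568) and without WT replicate 1 or 2 (-1.64 and -1.36), with a range of -2.88 to -0.78 when 1 replicate was left out. With the replicate number as a block, which only the untreated libraries carry, it was -1.69 (adjusted p = 3.13e-05). The zinc library carries no replicate number, so its comparisons could not be paired. One zinc library, and its difference from untreated LSKO in reads set aside, limit what these counts can show. Genes with a mean under 10 reads over the libraries of the fit, zinc included, were not tested.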
